A study of Mus musculus with 14 samples.

Results

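The genes described here are 10 protein-coding neighbours of Mycl1 on mouse chromosome 4: Scmh1, Ctps, Nfyc, Smap2, Zmpste24, Ppt1, Cap1, Mfsd2a, Trit1 and Ppie, in chromosome order. Mycl1 lies between Mfsd2a and Trit1 and is itself not counted among them. They were taken by name from 23284 genes in each count file, and were chosen by their high counts together with those of Mycl1 in these same libraries. Their difference between genotypes is therefore given as a description, with no test. All 10 were among the 14804 genes with enough counts to enter the fit.

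RNA was measured in 14 mouse libraries, each from a primary tumour of small cell lung cancer, a neuroendocrine carcinoma. By their labels 7 tumours have the genotype Rb1/Trp53/Crebbp and are called RPC, and 7 have the genotype Rb1/Trp53 and are called RP, so the tumour suppressors Rb1 and Trp53 are named in both. Crebbp encodes a histone acetyltransferase. The sources used here give no alleles, Cre driver or age, and do not say that each tumour is of a separate animal. The p-values below therefore cover the spread from tumour sample to tumour sample, which may be partly technical. In bulk tumour RNA, more cells with a high level and more RNA per cell cannot be told apart.

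Mycl1, now called Mycl, encodes a MYC-family transcription factor that is a known oncogene of small cell lung cancer, and copy-number gain of its locus is well known in human and mouse tumours of this kind. DNA was not analysed here, and why the neighbours were high together was not tested. The neighbours have unrelated roles. Scmh1 encodes a Polycomb group protein, Ctps the CTP synthase that makes CTP from UTP, and Nfyc a subunit of NF-Y, the factor that binds CCAAT boxes. Smap2 encodes a GTPase-activating protein for Arf proteins, Zmpste24 the protease that matures prelamin A, and Ppt1 a lysosomal thioesterase that removes palmitate from proteins. Cap1 encodes a protein that speeds actin turnover together with cofilin, Mfsd2a a transporter of lysophosphatidylcholine, Trit1 an enzyme that modifies tRNA, and Ppie a cyclophilin of the spliceosome.

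The promoter windows of Ppt1, Cap1, Mfsd2a and Trit1 are shown because these 4 genes were high in every tumour with a block around Mycl1. They come from RefSeq (GRCm38.p6, 250 bases before to 50 after the start) and are written 5′ to 3′ on the strand of the gene, with CCAAT on either strand in capitals.
Ppt1 (chr4:122835977-122836276, plus strand): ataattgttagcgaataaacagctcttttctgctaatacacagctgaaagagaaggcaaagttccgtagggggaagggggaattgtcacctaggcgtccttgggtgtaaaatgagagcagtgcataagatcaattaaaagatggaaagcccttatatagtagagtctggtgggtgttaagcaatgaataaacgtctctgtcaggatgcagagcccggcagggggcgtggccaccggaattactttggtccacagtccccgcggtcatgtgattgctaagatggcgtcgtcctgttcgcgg
Cap1 (chr4:122886027-122886326, minus strand): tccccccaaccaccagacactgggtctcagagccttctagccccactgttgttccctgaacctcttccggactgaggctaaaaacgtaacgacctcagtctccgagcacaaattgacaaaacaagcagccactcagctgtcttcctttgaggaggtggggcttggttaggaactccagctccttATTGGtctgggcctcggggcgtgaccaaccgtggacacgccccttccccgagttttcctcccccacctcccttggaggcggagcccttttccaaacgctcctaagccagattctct
Mfsd2a (chr4:122961139-122961438, minus strand): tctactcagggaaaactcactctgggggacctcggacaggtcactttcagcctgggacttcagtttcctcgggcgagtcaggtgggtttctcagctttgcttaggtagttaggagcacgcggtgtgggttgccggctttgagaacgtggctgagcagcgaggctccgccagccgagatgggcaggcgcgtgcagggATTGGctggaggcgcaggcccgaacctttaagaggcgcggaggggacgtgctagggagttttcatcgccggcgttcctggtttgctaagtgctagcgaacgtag
Trit1 (chr4:123016343-123016642, plus strand): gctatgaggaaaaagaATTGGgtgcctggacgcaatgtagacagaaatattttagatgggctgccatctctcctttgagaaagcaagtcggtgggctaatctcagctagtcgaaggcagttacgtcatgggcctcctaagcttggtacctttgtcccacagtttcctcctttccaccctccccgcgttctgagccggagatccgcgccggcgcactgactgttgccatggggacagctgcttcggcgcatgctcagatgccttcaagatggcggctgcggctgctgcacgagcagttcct
Windows were matched for 8 of the 10 neighbours, not for Smap2 or Ppie, and the first window listed per gene was read. CCAAT, the letters that NF-Y binds, was in 4 of these 8 windows (Cap1, Mfsd2a, Trit1 and Zmpste24), against 38.3% of 11622 windows of tested genes. The count depends on the window read. Nfyc had 0 matches in window 1, but 5 and 3 in its windows 2 and 3, while window 2 of Scmh1 and of Ctps held 0. CACGTG, the letters that MYC-family proteins bind, was in 0 of the 8, against 9.96% of the 11622. Both strands were read, CCAAT can overlap its own reverse complement ATTGG but neither can overlap CACGTG, and a missing match says only that these letters are not in the window.

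The libraries held 10060969 to 24052799 counts in genes in RPC tumours and 10965714 to 23678648 in RP tumours. Crebbp averaged 63.9 ± 4.44 CPM (counts in a gene scaled to a common total of counts in genes) in RPC and 77.6 ± 14.8 CPM in RP tumours (SD, n = 7 each), with overlapping ranges (exact two-sided permutation test, p = 0.0425; adjusted over 3 genes, 0.128), and this unadjusted p was above 0.05 with 10 of the 14 libraries left out in turn. Rb1 (exact p = 0.383) and Trp53 (exact p = 0.126) ranged from 97.1 to 174 and from 12.2 to 32.5 CPM in RPC tumours and from 67.4 to 245 and from 18.9 to 35.2 CPM in RP tumours. Counts over a whole gene include exons outside a deleted part, so they do not check the genotype. RPC tumours 3, 5 and 6 held few macrophage counts. The summed level of 7 macrophage markers was 4.67 to 8.05 CPM in them, with 4 markers under 1 CPM throughout, and 388 to 1996 CPM in the other RPC tumours, against 440 to 1394 CPM in RP tumours. For 6 fibroblast markers the sums were 3.28 to 119.8 CPM, 275 to 575 CPM and 221 to 878 CPM in the same order. For 5 endothelial markers the sum was 6.96, 81.0 and 1.94 CPM in RPC tumours 3, 5 and 6, with 3 markers under 1 CPM throughout. It was 39.2 to 268 CPM in the other RPC tumours and 73.3 to 226 CPM in RP tumours. RPC tumour 5 was thus low in macrophage and fibroblast markers. Its endothelial sum was within the RP range but rests on the remaining markers. The 7 neuroendocrine markers summed to 2507 to 4675 CPM in RPC and 4573 to 10227 CPM in RP tumours.

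The 10 neighbours together took 0.153% to 1.37% of all counts in genes in RPC tumours and 0.0715% to 0.100% in RP tumours. Each RPC tumour was thus above every RP tumour. RPC tumour 1 was highest at 13727 CPM for the 10 genes together, then RPC tumour 2 at 10575 CPM, RPC tumour 4 at 6817 CPM, RPC tumour 6 at 5442 CPM and RPC tumour 3 at 3622 CPM. RPC tumours 7 and 5 came last with 1796 and 1526 CPM, against 715 to 1002 CPM in RP tumours. With Mycl1 added, the share reached 1.93% in RPC tumour 1 and 1.16% in RPC tumour 6, against at most 0.128% in an RP tumour.

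**Figure D1:**
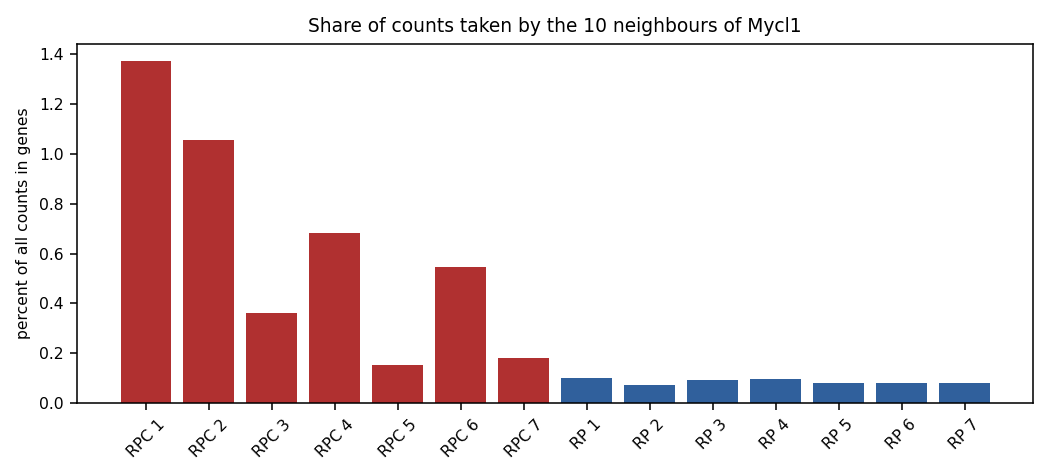
Percent of all counts in genes (vertical axis, from 0) taken by the 10 neighbours of Mycl1 in each library, 7 RPC tumours in red and 7 RP tumours in blue. The share was 1.37% in RPC tumour 1 and at most 0.100% in an RP tumour.

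Level was read for each gene as log2 CPM above the mean of the RP tumours, where an RP tumour was set against the mean of the 6 others. A gene was called high in a tumour at 2 log2 units or more, a 4-fold difference. By this measure 35 of 70 values of the neighbours were high in RPC tumours and 1 of 70 in RP tumours, while over all tested genes 2.26% of values were high in RPC tumours and 1.73% in RP tumours. RPC tumours 1 and 2 each had all 10 neighbours high, where 1.44% and 2.39% of all tested genes were high. RPC tumour 6 had 6 high, RPC tumour 3 had 5 and RPC tumour 4 had 4, where 2.28%, 2.28% and 2.4% of all tested genes were high. RPC tumours 5 and 7 had 0 high, where 3.47% and 1.55% of tested genes were. In RP tumours 1 to 7 the neighbours had 0, 0, 0, 1, 0, 0 and 0 high values, where 2.95%, 1.92%, 1.2%, 1.6%, 1.28%, 1.3% and 1.88% of tested genes were high. Without RPC tumours 3, 5 and 6, which were low in macrophage and fibroblast markers, 24 values were high in the other 4 RPC tumours. RPC tumours 3 and 6 carry the block with macrophage and fibroblast markers near 0. RPC tumours 1, 2 and 4 carry it with macrophage sums of 388 to 1996 CPM, against 440 to 1394 CPM in RP tumours. Whether these markers and the block are linked was not tested.

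**Figure D2:**
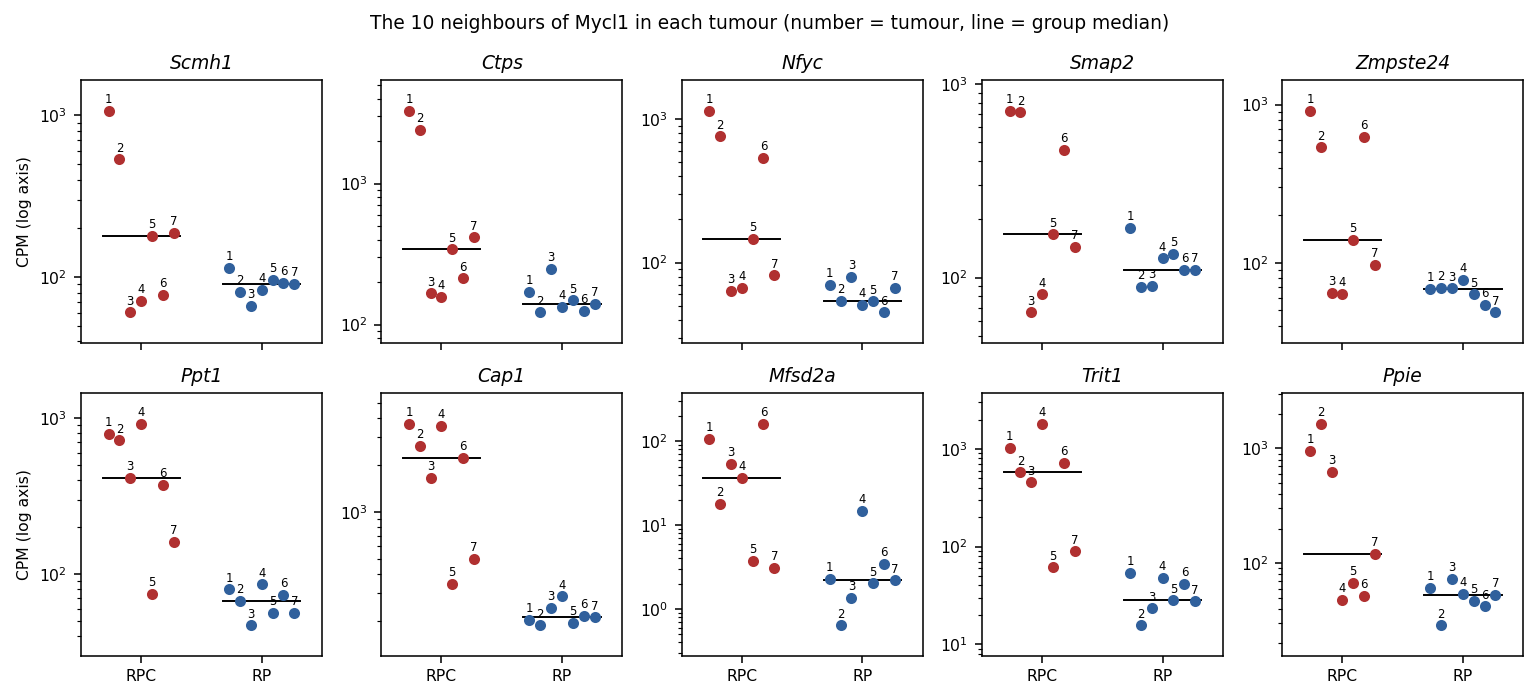
CPM of each of the 10 neighbours (vertical log axis) in RPC tumours (red, left) and RP tumours (blue, right); points carry the tumour number and lines are group medians. RPC tumours 1 and 2 lie above all RP tumours in each panel, while the other RPC tumours do so for some genes only.

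Block width was read as the run of consecutive tested chromosome 4 genes around Mycl1 that were all high, and 5 of 7 RPC tumours and 0 of 7 RP tumours had such a run. The widest was in RPC tumour 1, with 21 genes from Scmh1 to Hpcal4, which hold all 10 neighbours. Its median level was 4.29 log2 units above the RP mean, and it ended sharply. Scmh1 stood at 3.61 and the next gene outward, Foxo6, at -1.13, while on the other side Hpcal4 stood at 6.04 and Heyl at -0.54.

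RPC tumour 2 had a run of 16 genes from Nfyc to Ppie with 8 neighbours. Scmh1 and Ctps were high in that tumour too, at 534 and 2409.9 CPM. Tested genes under the threshold lay between them and the run, Cited4 at -2.92 log2 units among them. Cited4 encodes a transcriptional cofactor that binds CREBBP and EP300. On the distal side Ppie stood at 5.06 and Hpcal4 at -0.68.

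RPC tumour 3 had a run of 8 genes from Ppt1 to Ppie, with 5 neighbours. Ppt1 stood at 2.66 there and the next gene, Rlf, at -0.25. The 5 neighbours before Rlf lay between -0.82 and 0.14 in that tumour, where Scmh1 and Smap2 were under every RP tumour and the other 3 within the RP range.

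RPC tumours 4 and 6 had the narrowest runs, the same 5 genes from Ppt1 to Trit1 with 4 neighbours. In RPC tumour 4 both edges were steep, since Ppt1 stood at 3.82 beside Rlf at -0.20, and Trit1 at 5.86 beside Bmp8b at -2.68. In RPC tumour 6 only the distal edge was, with Trit1 at 4.52, Bmp8b at 1.27 and Ppie at 0.07. On its other side Rlf stood at 1.92, just under the threshold, and beyond it Zmpste24, Col9a2, Zfp69, Dem1 and Nfyc were high, from 2.60 to 3.71, with Smap2 at 1.97 and Rims3 at 1.49 among them. Its run held 15 genes from Cited4 when single genes under the threshold were bridged, which left the other runs as they were, and 11 genes when RP tumour 1 was left out of the mean. The stretch that all 5 runs share is Ppt1, Cap1, Mfsd2a, Mycl1 and Trit1.

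**Figure D3:**
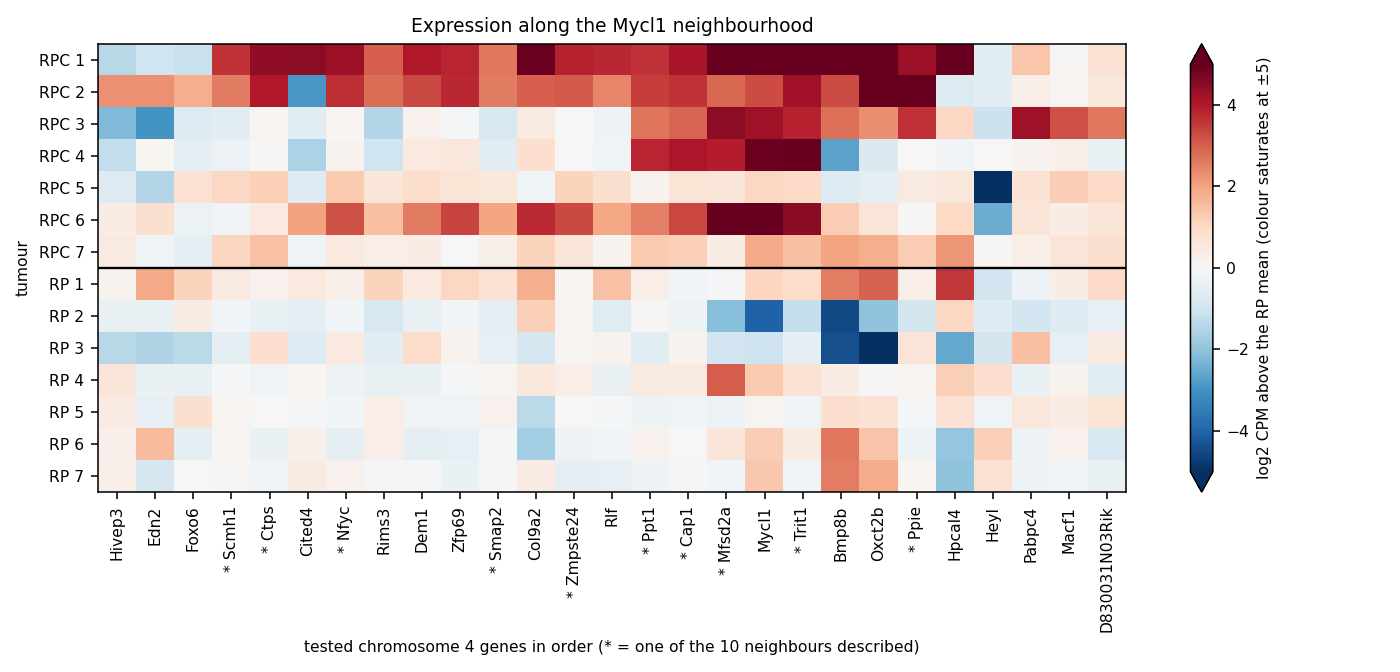
Log2 CPM above the RP mean (colour, saturating at ±5) of tested chromosome 4 genes in gene order (columns) in 7 RPC tumours (upper rows) and 7 RP tumours (lower rows); asterisks mark the 10 neighbours. The red blocks of RPC tumours 1, 2, 3, 4 and 6 differ in width and share the 5 genes from Ppt1 to Trit1.

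Of the 4 neighbours in every run, Cap1, the actin regulator, had 346 CPM at the lowest, 2222 CPM at the median and 3679 CPM at the highest in RPC tumours, against 187, 210.5 and 286 CPM in RP tumours. The groups did not overlap, which held for 2 of the 10 neighbours (Cap1 and Trit1) and for 0.473% of all tested genes with every RPC value higher. Mean Cap1 was 2085 ± 1338 CPM in RPC and 219.6 ± 34.5 CPM in RP tumours (SD, n = 7 each), a log2 fold change of 3.29 (SE 0.47). Trit1, the tRNA-modifying enzyme, had 61.1, 576 and 1826 CPM in RPC tumours, against 15.6, 28.1 and 54.1 CPM in RP tumours, for lowest, median and highest. RPC tumour 4, with one of the narrowest runs, held the highest Trit1 value, 53.8 times the RP mean, and RPC tumour 5 the lowest. Its log2 fold change of 4.38 (SE 0.67) was the largest among the 10.

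Ppt1, the lysosomal thioesterase, had 74.4, 413 and 925 CPM in RPC tumours, against 47.0, 67.1 and 85.9 CPM in RP tumours. RPC tumour 5 alone lay within the RP range. Mfsd2a, the lysophospholipid transporter, was the least abundant by counts, with as few as 7 in a library. It had 3.11, 36.6 and 163 CPM in RPC tumours, against 0.638, 2.19 and 14.7 CPM in RP tumours. RP tumour 4 gave the 14.7 CPM, 3.03 log2 units above the other RP tumours, and this was the single high value of a neighbour in an RP tumour. In the same tumour Cap1, Ppt1 and Trit1 stood at 0.46, 0.46 and 0.71, so Mfsd2a was high there without the genes beside it. RPC tumours 5 and 7 at 3.72 and 3.11 CPM lay within the RP range of Mfsd2a, and RPC tumour 2 at 17.9 CPM was just above it. Log2 fold changes of Ppt1 and Mfsd2a were 2.94 (SE 0.45) and 3.93 (SE 0.93), and that of Mfsd2a was 4.82 without RP tumour 4.

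The 5 neighbours on the other side of Rlf were high in fewer tumours. Zmpste24, the prelamin protease, had 63.5, 139 and 918 CPM in RPC tumours, against 48.6, 68.0 and 77.7 CPM in RP tumours. It was high in RPC tumours 1, 2 and 6, at 918, 537 and 627 CPM, and RPC tumours 3 and 4 lay within the RP range. Nfyc, the NF-Y subunit, was high in the same 3 tumours, at 1151, 759 and 537 CPM, against at most 79.1 CPM in an RP tumour. The other 4 RPC tumours had 63.7 to 147 CPM of Nfyc, and its log2 fold change was 2.78 (SE 0.64), against 2.48 (SE 0.58) for Zmpste24. Smap2, the Arf regulator, reached 728, 712 and 457 CPM in these tumours, against 89.9 to 180.4 CPM in RP tumours, but in RPC tumour 6 it was 1.97 log2 units up and just missed the threshold. It had the smallest log2 fold change of the 10, 1.53 (SE 0.50). In RPC tumours 3 and 4 it was at 66.2 and 81.9 CPM, under every RP value.

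The outermost pair, Scmh1 and Ctps, was high only in RPC tumours 1 and 2 among the 14 libraries. Ctps, the CTP synthase, had 3298 and 2409.9 CPM there, then 415 CPM in RPC tumour 7 and 341 CPM in RPC tumour 5. The RP tumours had between 122 and 247 CPM of Ctps, a range that also held RPC tumours 3, 4 and 6. Scmh1, the Polycomb gene, had 1070.2 and 534 CPM in RPC tumours 1 and 2 and 60.3 to 187 CPM in the other 5, against 66.0 to 114 CPM in RP tumours. Log2 fold changes were 2.71 (SE 0.71) for Ctps and 1.86 (SE 0.58) for Scmh1. Without RPC tumour 1 they were 1.96 and 1.06.

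Ppie, the cyclophilin, is the one neighbour described on the far side of Trit1. It was high in RPC tumours 1, 2 and 3, at 958, 1649 and 628 CPM, against 28.7 to 73.2 CPM in RP tumours. RPC tumours 4, 5 and 6 at 48.1, 67.7 and 51.8 CPM were inside the RP range although RPC tumours 4 and 6 had high Trit1. RPC tumour 2, which had a lower Mycl1 level than the other tumours with a run, had the highest Ppie. The log2 fold change of Ppie was 3.31 (SE 0.78), and 2.68 without RPC tumour 2.

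Fold changes over all 7 tumours of a genotype thus average a few high tumours with others near the RP level. For Ppie the RPC mean was 9.83 times the RP mean and the RPC median 2.27 times the RP median, and for Ctps the ratios were 6.44 and 2.44. For Ppt1 they were 7.42 and 6.15, and for Mfsd2a 14.5 and 16.7. The median log2 fold change of the 10 was 2.86, against 0.002 over all tested genes. By edgeR's quasi-likelihood test 7 of the 10 were among the genes higher in RPC at a Benjamini-Hochberg adjusted p under 0.05, a class that holds 1.09% of tested genes. That count follows from how the 10 were chosen. Smap2, Scmh1 and Ctps, which were high in 2 RPC tumours each, were the 3 outside it.

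**Figure D4:**
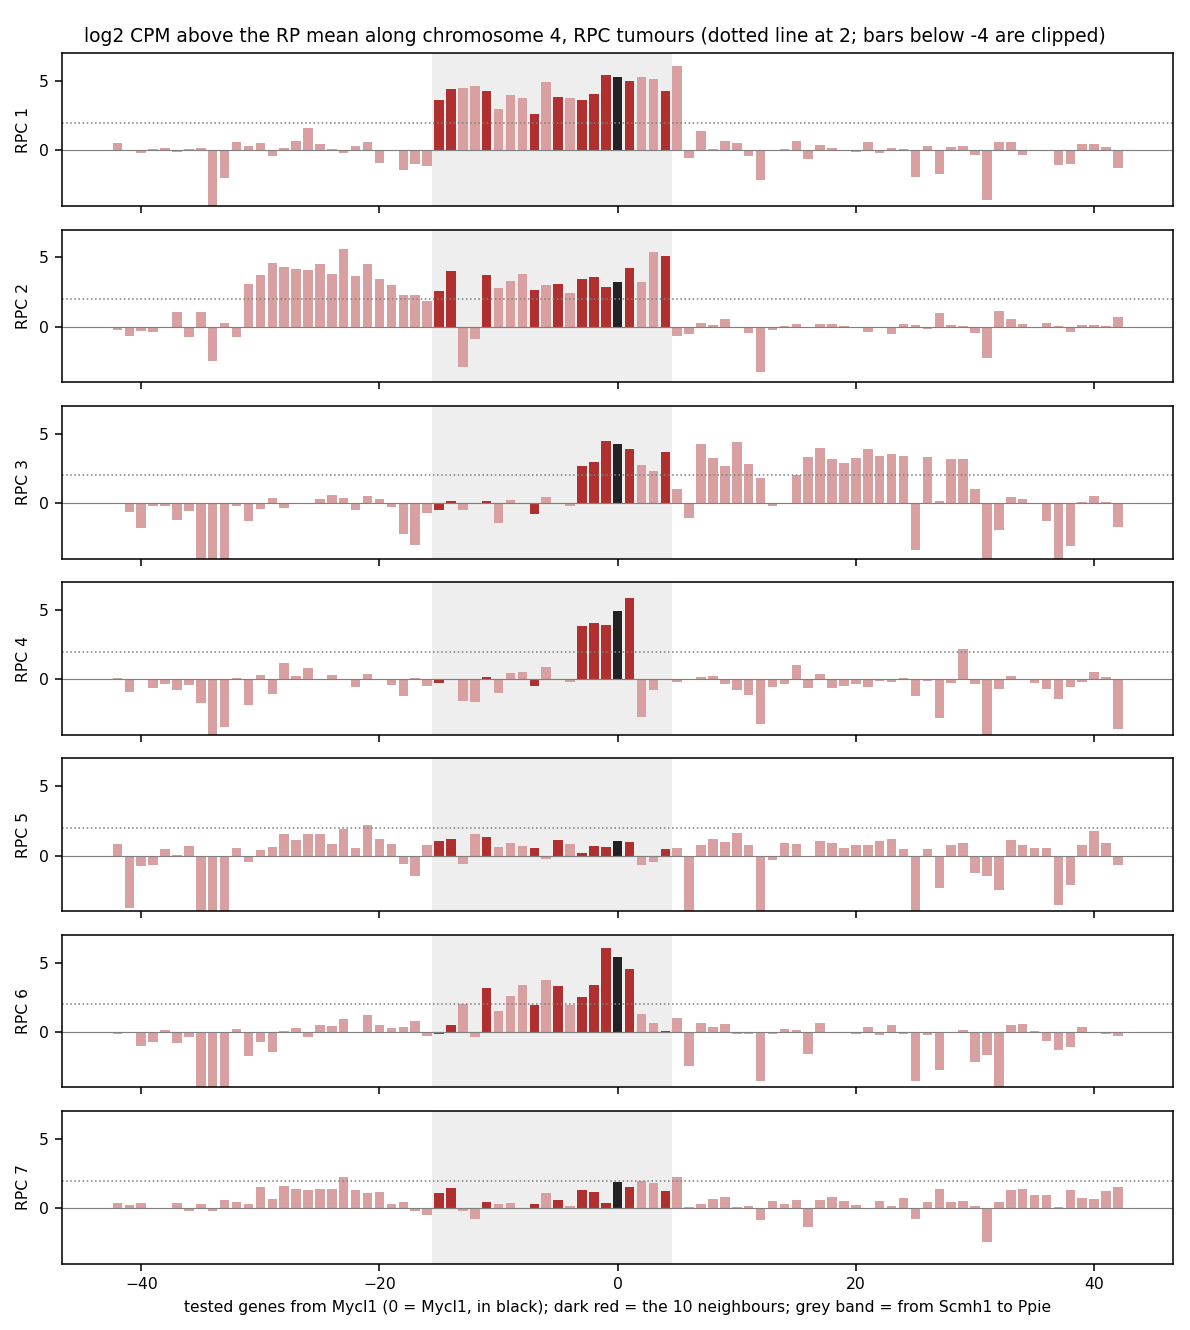
Log2 CPM above the RP mean (vertical axis) of tested chromosome 4 genes by their distance in genes from Mycl1 (horizontal axis), a panel for each RPC tumour; the neighbours are dark red, Mycl1 black, other genes pale, the dotted line is the threshold of 2, and bars below -4 are clipped. Runs hold 21, 16, 8, 5 and 5 genes in RPC tumours 1, 2, 3, 4 and 6, and RPC tumours 2 and 3 have further high genes on opposite sides.

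Mycl1 itself had 5567, 1393, 2727, 4398, 299, 6131 and 540.3 CPM in RPC tumours 1 to 7, against 13.0 to 323 CPM in RP tumours. RPC tumour 5 was inside the RP range and the other 6 were above it. The order of the tumours by Mycl1 was not their order by width: RPC tumour 6, with a run of 5 genes, had the highest level, and RPC tumour 2, with a run of 16 genes, the lowest among the 5 with a run.

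RPC tumours 5 and 7 had no run, but all 10 neighbours lay above the RP mean in both. The median over the 10 was 0.81 log2 units above the RP mean in RPC tumour 5 and 1.15 in RPC tumour 7, against -0.31 to 0.31 in RP tumours. The neighbours ranged from 0.19 for Ppt1 to 1.32 for Nfyc in RPC tumour 5 and from 0.30 for Smap2 to 1.51 for Trit1 in RPC tumour 7. In the same tumours the median over all 932 tested chromosome 4 genes was -0.08 and 0.32. The 40 tested genes before Scmh1 had medians of 0.49 and 0.39 there, and the 40 after Ppie 0.75 and 0.53.

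Among RP tumours, RP tumour 2 stood low for several genes of the neighbourhood, near Mycl1 and farther off. It had the lowest Mycl1 (13.0 CPM), Mfsd2a (0.638 CPM), Trit1 (15.6 CPM) and Ppie (28.7 CPM) of the 14 libraries. Its Ctps (122 CPM) and Cap1 (187 CPM) were the lowest too. Its Ppt1 at 67.1 CPM was the RP median, and its Zmpste24 at 69.6 CPM was above the RP median of 68.0 CPM. The 40 tested genes before Scmh1 had a median of -0.48 log2 units in this tumour, and the 40 after Ppie -0.28.

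Other tested genes inside the stretch followed the tumours less evenly. Of 9 genes between the neighbours, Mycl1 left out, 22 of 63 values were high in RPC tumours and 4 of 63 in RP tumours. Dem1, an exonuclease gene, and Zfp69, a zinc finger gene, were high in RPC tumours 1, 2 and 6. Dem1 had 309.6, 190.4 and 116 CPM there, against 14.2 to 33.1 CPM in RP tumours. Col9a2, a collagen gene, was high in the same 3 tumours, and Rims3, a synaptic gene, and Rlf, a zinc finger gene, in RPC tumours 1 and 2. Bmp8b, which encodes a bone morphogenetic protein, had 344, 82.3 and 58.1 CPM in RPC tumours 1, 2 and 3 but 1.32 CPM in RPC tumour 4, and from 0.547 to 41.4 CPM in RP tumours. Oxct2b was high in RPC tumours 1, 2 and 3, at no more than 32.0 CPM. The 4 high values in RP tumours were of these genes, Oxct2b in RP tumour 1 and Bmp8b in RP tumours 1, 6 and 7. Oxct2b had 4.31 CPM in RP tumour 1, against 3.68 CPM in RPC tumour 3.

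Just outside the stretch, Foxo6, Edn2 and Hivep3 on the Scmh1 side had log2 fold changes of 0.18 (SE 0.44), 0.06 (SE 0.71) and 0.31 (SE 0.55). Hpcal4, Heyl and Pabpc4 on the Ppie side had 2.56 (SE 1.19), -0.94 (SE 0.65) and 1.89 (SE 0.69). The Hpcal4 value rests on 33.8 CPM in RPC tumour 1, where the next highest library, RP tumour 1, had 4.16 CPM, and that of Pabpc4, a poly(A)-binding protein gene, on 821 CPM in RPC tumour 3, against 25.2 to 108 CPM in RP tumours. For comparison, the lowest value among the 10 neighbours was the 1.53 of Smap2.

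RPC tumours 2 and 3 had further high genes beyond the stretch, on opposite sides. In RPC tumour 2, a run of 15 genes from Slc2a1 to Edn2 had a median of 3.80, and Foxo6 at 1.83 lay between it and Scmh1. In RPC tumour 3, runs of 5 genes from Pabpc4 to Akirin1 and of 10 genes from Utp11l to 9930104L06Rik had medians of 3.23 and 3.36. Of the 40 tested genes before Scmh1, 15 were high in RPC tumour 2 and at most 1 in any other library. Of the 40 after Ppie, 18 were high in RPC tumour 3 and at most 3 in any other library.

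Runs of at least 4 high genes anywhere on the autosomes were counted in the same way. RPC tumours had 12 such runs, of which 10 were on chromosome 4, and RP tumours had 7, of which 0 were on chromosome 4, a chromosome with 6.56% of the tested autosomal genes. Of the 10, 5 are the runs around Mycl1 itself, which hold genes chosen for being high, and 5 do not hold Mycl1. The runs of 21 and 16 genes around Mycl1 were the longest in any library, and the longest in an RP tumour, in RP tumour 5, had 10 protocadherin genes on chromosome 18. The RP mean set the level in both genotypes, so these counts describe the libraries and are not a test.

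Genes that share a role with the neighbours, but lie elsewhere in the genome, were compared in the same fit. Of 40 partners and paralogs, 1 rose and 0 fell in RPC tumours by edgeR at an adjusted p under 0.05 over all tested genes, where 2.21% of tested genes were called. At an unadjusted p under 0.05, 5 were higher and 3 lower, and the median log2 fold change was 0.03 over the 40, from -0.97 to 0.84. Such p-values were common over all genes. With RLE in place of TMM scaling in edgeR, 8 of the 40 and 3173 of the 14804 tested genes had one. In RPC tumours 1 of their 280 values was high, where 2.26% of the values of all tested genes were. The gene that rose was Cfl1, which encodes cofilin, at 800.4 ± 163 CPM in RPC and 457 ± 105 CPM in RP tumours (SD, n = 7 each). Its log2 fold change was 0.84 (SE 0.20), with an adjusted p in edgeR of 0.0417, and 5 of 7 RPC tumours were above every RP value. Cfl1 lies on chromosome 19, and its adjusted p was 0.297, at a log2 fold change of 0.61, without RPC tumours 3, 5 and 6. With single libraries left out the call was lost in 11 of 14 cases, where the adjusted p in edgeR went up to 0.0973.

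No closest paralog passed the test. Ctps2, the second CTP synthase, averaged 68.0 ± 11.2 CPM in RPC and 67.1 ± 9.93 CPM in RP tumours (SD, n = 7 each), a difference of 0.05 on the log2 scale (SE 0.15; adjusted p = 0.857 in edgeR). The log2 fold changes of Cap2, Smap1, Ppt2 and Mfsd2b were 0.11 (SE 0.51), 0.03 (SE 0.22), -0.52 (SE 0.36) and -0.02 (SE 0.30), and their adjusted p in edgeR were 0.921, 0.96, 0.423 and 0.973. The other NF-Y subunits did not move with Nfyc past the threshold: Nfya averaged 86.1 ± 14.2 CPM in RPC and 67.3 ± 22.4 CPM in RP tumours, and Nfyb 60.9 ± 19.7 CPM and 81.6 ± 11.9 CPM (SD, n = 7 each), with adjusted p in edgeR of 0.315 and 0.27.

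Among the remaining partners with the smallest p for each neighbour, Lmna, whose product Zmpste24 matures, had 145 ± 57.3 CPM in RPC and 291 ± 52.9 CPM in RP tumours (SD, n = 7 each) and missed the threshold at a log2 fold change of -0.97 (SE 0.25) and an adjusted p in edgeR of 0.0575. It passed with DESeq2, with limma-voom and when RPC tumour 5 was left out. Cln6, a gene of the same lysosomal storage diseases as Ppt1, differed by -0.57 on the log2 scale (SE 0.22; adjusted p = 0.151 in edgeR), and Cdkal1, another tRNA-modifying enzyme, by 0.33 (SE 0.16; adjusted p = 0.23 in edgeR). Ppia, an abundant cyclophilin, differed by 0.44 (SE 0.21; adjusted p = 0.248 in edgeR). Bmi1 of the Polycomb complex, Cad of pyrimidine synthesis and Arf1 differed by 0.33, -0.31 and -0.12 (SE 0.22, 0.27 and 0.12; adjusted p = 0.391, 0.518 and 0.594 in edgeR).

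**Figure D5:**
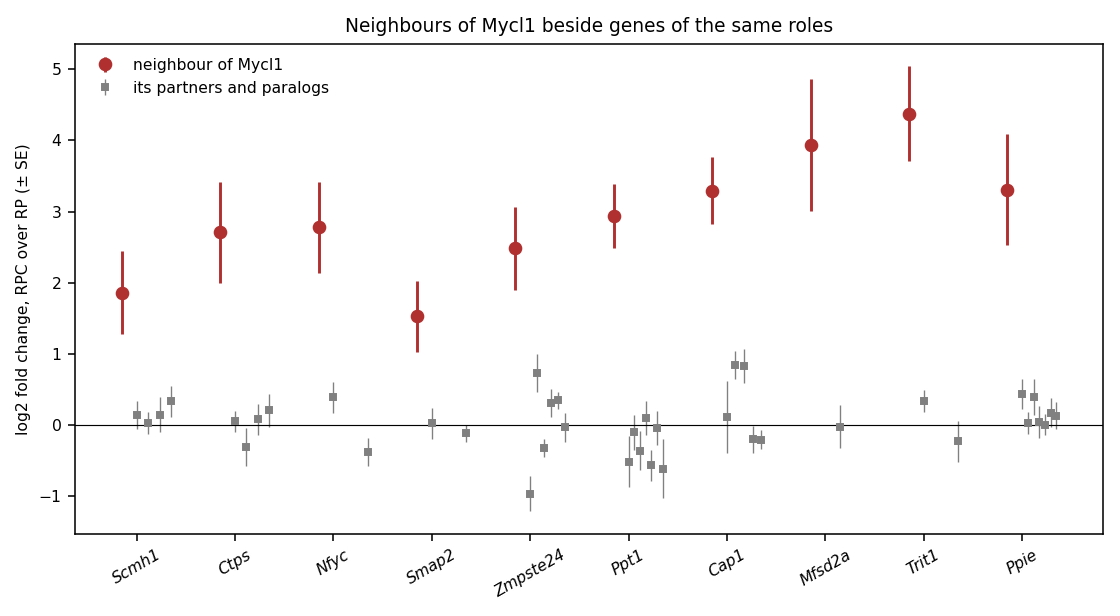
Log2 fold change of RPC over RP tumours (vertical axis, bars are SE of the edgeR fit, n = 7 tumours each) for the 10 neighbours (red circles) and for partners and paralogs of each (grey squares). The neighbours lie between 1.53 and 4.38, as their choice fixes, and the 40 partners between -0.97 and 0.84.

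The profile of a gene over the 14 libraries was set against the mean profile of the 10 by the root-mean-square difference in log2 units, where a flat profile gave 1.77. With the 10 neighbours left out, the 3 closest tested genes were Dem1 (0.65), Zfp69 (0.72) and Rlf (0.91), all between the neighbours. The neighbours themselves ranged from 0.70 for Nfyc to 1.65 for Mfsd2a. Outside chromosome 4 the 5 closest were Pter on chromosome 2 (0.99), Snhg1 on chromosome 19 (1.02), Layn on chromosome 9 (1.09), and Gnb4 on chromosome 3 and Abcg2 on chromosome 6 (1.10 each).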

How the data were processed

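Read counts per gene, as deposited by the authors in a file for each of 14 libraries, were used; per the labels' protocols RNA was extracted with TRIzol and libraries were made from oligo-dT selected RNA. The tools named per the submitters' processing notes are HTSeq 0.6.1, TopHat2 2.0.12 and bcl2fastq 1.8.2, with mm9 as the build, and no strand setting or annotation. The 5 entries naming no gene were left out: reads outside genes were 15.1% to 20.5%, ambiguous ones 0.883% to 1.09% and non-unique ones 8.44% to 11.2% of a file's counts. Gene order came from RefSeq (GRCm38.p6), by symbol. For levels, 0.5 counts were added before log2 CPM. Fits used edgeR 4.0.16 in R 4.3.3 (TMM, filterByExpr with 10 and 15 counts, quasi-likelihood F test, Benjamini-Hochberg at 0.05), tested on simulated data, with DESeq2 1.42.0 and limma 3.58.1 as alternatives. The neighbours, partners and thresholds were chosen with earlier results of these data known. Named genes were the 10 neighbours, tested genes between them and 3 on each side, partners by smallest p for each neighbour, and the 5 most similar genes outside chromosome 4. Some genes of the region are not reported here. The least counted neighbour, Mfsd2a, had 7 counts at its lowest, and the other 9 at least 171.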

Additional observations from a re-analysis of the deposited data

Results flagged for a closer look

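Crebbp in RPC tumours stood out for a single tumour. RPC tumour 1 had 54.8 CPM and the other 6 RPC tumours 62.4 to 68.3 CPM. In log2 units above the RP mean, RPC tumour 1 stood at -0.479 and the others at -0.292 to -0.163. On this log2 scale the gap to the nearest was 0.593 of the range of the RPC tumours, above Dixon's critical value for 7 samples. On the CPM values the same ratio falls just under that critical value, so the flag depends on the scale. Among 32 groups of values checked on the log2 scale, 1 exceeded the critical value, and chance alone passes it in about 0.05 of groups. The same tumour had the widest block around Mycl1, and whether the values are linked was not tested.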

How the results depend on the processing

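All 220 recomputed log2 fold changes of the 10 neighbours kept their direction, from 0.98 to 4.82. With limma-voom the fold changes of Scmh1, Ctps, Nfyc, Zmpste24, Mfsd2a, Trit1 and Ppie were lower by over 1.5 times, at 1.07, 1.69, 1.93, 1.74, 3.24, 3.69 and 2.13, and with the replicate block those of Scmh1, Ctps, Nfyc, Zmpste24 and Ppie, at 1.03, 1.61, 1.92, 1.73 and 1.98. Ctps was at 3.36 without RPC tumours 3, 5 and 6. The number of genes called, 327, became 1424 with DESeq2, 503 with limma-voom, 74 with the replicate block, 11 without RPC tumours 3, 5 and 6 (1824 at an unadjusted p under 0.05), and 51 (without RP tumour 6) to 898 (without RP tumour 3) with single libraries left out. Partners called, 1, became 4 with DESeq2, 2 with limma-voom, 0 with no filter, 0 with the replicate block, 0 without RPC tumours 3, 5 and 6, and 0 to 3 with single libraries left out. Same-numbered tumours correlated at -0.05 to 0.33 and 5 of 14 correlated best with their own number, so the numbers were not taken as pairs. Crebbp differed by -0.26 on the log2 scale, by -0.23 with TMM scaling (exact p = 0.0565), and by -0.32 to -0.20 with single libraries left out. High neighbour values in RP tumours numbered 0 to 1 with single libraries left out. Widths at a threshold of 1 log2 unit were 1, 14 and 6 genes in RPC tumours 5, 6 and 7, and at 3 log2 units 12, 5 and 3 genes in RPC tumours 1, 2 and 3. With the median of all 14 libraries as the zero, RPC tumour 3 had 5 genes. Bridging single genes, chosen after seeing the data, gave 15 in RPC tumour 6, and leaving out single libraries 5 to 11 in RPC tumour 6 and 0 to 1 in RPC tumour 7. The median level of the neighbours with that zero was 3.90, 3.10, 1.15, -0.070, 0.31, 2.50 and 0.65 in RPC tumours 1 to 7, so RPC tumour 4 changed sign from 0.12. With the mean over neighbours it was 1.65, 1.70 and 2.53 in RPC tumours 3, 4 and 6. The causes of these changes were not tested.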

Other observations

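Several genes between the neighbours had too few counts in most libraries to be tested but many in a single RPC tumour. The uncharacterised gene 9530002B09Rik had 794 counts in RPC tumour 2 and 71 in RPC tumour 4, at most 5 in the other RPC tumours and 0 in every RP tumour. Tmco2 had 240 counts in RPC tumour 6 and at most 1 in each other RPC tumour, and 0 in every RP tumour. Gm8439 had 167 counts in RPC tumour 1, at most 14 in another RPC tumour and at most 7 in an RP tumour. Each of these tumours had a block around Mycl1, and the genes were picked after their counts were seen.

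RPC tumour 4, with a narrow block around Mycl1, also had a run of high genes farther along chromosome 4. This run of 5 genes from Tmem54 to Yars, 70 to 74 tested genes after Mycl1, had a median of 2.95 log2 units above the RP mean. Among RP tumours, RP tumour 3 had a run of 4 genes from Fam84b to Pvt1 on chromosome 15 with a median of 4.33. Its highest gene was Myc, at 592 CPM and 5.18 log2 units. These runs were described after their values were seen.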
